A study of Mus musculus with 84 samples.

Results

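In colon epithelium of mice, 5015 regions carried H3K4me1 in every H3K4me1 library and H3K27ac in no H3K27ac library. They were found by merging the overlapping peaks of the 12 H3K4me1 peak lists into 85476 regions. A merged region was kept if all 12 lists had a peak in it and if it shared no base with a peak of any of the 23 H3K27ac lists. Of the 43085 regions with H3K4me1 in all 12 lists, the 5015 regions without H3K27ac made up 11.6%, and they are called H3K4me1-only regions here. Another 19517 regions had H3K27ac in 1 to 22 lists, and 18553 had it in all 23.

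H3K4me1 is laid down on the histone tails around enhancers, whether or not these are at work, while H3K27ac is added when an enhancer or promoter is active. An enhancer with H3K4me1 alone is often described as poised or primed. H3K4me1 without H3K27ac is also found around silent promoters of developmental genes, many of which carry the repressive mark H3K27me3 in other tissues. H3K27me3 was not analysed here, so whether these regions were poised in the strict sense was not tested, and 12.8% of them lay at promoters rather than at distal enhancers.

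H3K4me1 and H3K27ac were profiled by ChIP-seq in colon epithelium, stripped from the tissue with EDTA, of male and female C57BL/6 mice. The mice were bought at 5 weeks of age and given a high fat diet (HFD, 60% fat) or a low fat diet (LFD, 10% fat) for up to 20 weeks, with 3 libraries per sex, diet and mark. HNF4α, a nuclear receptor that maintains the intestinal epithelium, was profiled in 2 HFD and 2 LFD males. The other 11 H3K27ac lists and the 12 RNA-seq libraries came from germ-free male C57BL/6 mice. These were also bought at 5 weeks of age, but from another supplier. They received stool of HFD donors (HFB) or LFD donors (LFB) and were fed either diet for 5 weeks. This gives the groups HFDHFB, HFDLFB, LFDHFB and LFDLFB. Each of these groups had 3 libraries, apart from 2 H3K27ac lists in HFDHFB. H3K4me1 and RNA were therefore measured in different animals, and the RNA came from scraped colon cells of males alone. The peak lists give the place of each peak and no score, so their depth is unknown. They held 71853 to 79511 peaks for H3K4me1, 38317 to 51873 for H3K27ac and 21308 to 27766 for HNF4α.

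At the borders of the rule, 2264 regions with H3K4me1 in all 12 lists had H3K27ac in exactly 1 list, between 27 and 297 of them per list, and 2126 regions without H3K27ac had H3K4me1 in 11 lists. The median width was 3200 bp in the former and 2600 bp in the latter, next to 3000 bp in the H3K4me1-only regions. Of the regions acetylated in exactly 1 list, 1575 were acetylated in a recipient and 689 in a mouse of the diet study. The recipient lists were longer, with 39684 to 51873 H3K27ac peaks against 38317 to 42852 in the diet study. The list with 297 such regions, HFDHFB replicate 2, was the longest. The part of list length in this split was not tested.

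Sequences of some of these regions are printed here, picked by the features searched for. A CpG-rich window, as defined below, was in 896 of the 5015 regions (17.9%) and a REST core in 14 (0.279%). Among the widest H3K4me1-only regions were CpG-rich stretches at genes of embryonic transcription factors, and the 3 widest CpG-rich ones are shown. Dmrta2 encodes a DM-domain factor of the developing brain, Foxd3 a forkhead factor of neural crest and pluripotent cells, and Otx1 a homeobox factor of the forebrain. For each, the 120 bp outside UTRs with the most CpG dinucleotides are printed (mm9, plus strand, CpG in capitals), from the regions chr4:109646001-109660200, chr4:99316601-99330600 and chr11:21892601-21904600.
Dmrta2: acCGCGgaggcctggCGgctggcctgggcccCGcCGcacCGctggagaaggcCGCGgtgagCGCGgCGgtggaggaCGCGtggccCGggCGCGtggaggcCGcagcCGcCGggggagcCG
Foxd3: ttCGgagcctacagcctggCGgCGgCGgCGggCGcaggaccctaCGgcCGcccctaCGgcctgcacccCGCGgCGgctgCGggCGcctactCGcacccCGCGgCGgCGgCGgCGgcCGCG
Otx1: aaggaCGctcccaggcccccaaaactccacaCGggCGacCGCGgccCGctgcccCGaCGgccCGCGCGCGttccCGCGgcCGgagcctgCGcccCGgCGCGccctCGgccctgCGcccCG
These stretches held 20, 23 and 22 CpG dinucleotides, respectively.

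A further set held a match to the binding site of REST, the repressor that keeps neuronal genes off outside the nervous system. Binding of REST was not measured. The core searched was TCAGCACC, 2 bases of any kind and GGACAG, on both strands and over the whole region, a string with no overlap with the other motifs searched. It is shown in capitals with 20 bases on each side, on the strand of the core (mm9), for 5 regions at the start sites of neuronal genes. These genes encode a presynaptic calcium channel (Cacna1b), a sodium-activated potassium channel (Kcnt1), a LIM homeobox factor of motor neurons and pituitary (Lhx3), a SNARE protein of synaptic vesicle release (Snap25) and a neuronal intermediate filament (Ina).
Cacna1b: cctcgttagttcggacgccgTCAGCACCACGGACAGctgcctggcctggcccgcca
Kcnt1: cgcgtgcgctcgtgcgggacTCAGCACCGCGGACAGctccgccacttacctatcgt
Lhx3: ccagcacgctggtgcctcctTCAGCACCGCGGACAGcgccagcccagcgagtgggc
Snap25: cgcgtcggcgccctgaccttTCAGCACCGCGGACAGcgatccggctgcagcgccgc
Ina: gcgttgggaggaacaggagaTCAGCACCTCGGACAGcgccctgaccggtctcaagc
Their places were chr2:24617584-24617639, chr2:25719576-25719631, chr2:26063776-26063831, chr2:136540055-136540110 and chr19:47091149-47091204.

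The remaining sequences are HNF4α sites. They come from wide H3K4me1-only regions that had an HNF4α peak in all 4 lists and an HNF4α core in the 240 bp around the centre of the merged peak. The cores searched were CAAAGTCCA, CAAAGTTCA, CAAAGGTCA and CAAAGGCCA on both strands, and the core is in capitals (mm9, plus strand).
Rad18: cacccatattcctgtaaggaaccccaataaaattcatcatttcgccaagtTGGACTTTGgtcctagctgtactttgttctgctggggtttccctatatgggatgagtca
Nnmt: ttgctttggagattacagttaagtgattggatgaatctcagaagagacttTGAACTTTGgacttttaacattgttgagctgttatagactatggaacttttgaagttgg
Arhgap24: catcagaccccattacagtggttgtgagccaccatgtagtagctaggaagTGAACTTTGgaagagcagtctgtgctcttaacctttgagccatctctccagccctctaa
Fbxo10: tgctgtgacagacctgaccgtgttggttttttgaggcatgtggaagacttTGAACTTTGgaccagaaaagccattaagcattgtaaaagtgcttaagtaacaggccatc
They lie at chr6:112710715-112710823, chr9:48440229-48440337, chr5:102740694-102740802 and chr4:45077617-45077725. Each is named for the gene with the nearest start site, at 62.8, 27.4, 170 and 2.73 kb from the centre of the region. The sites near Rad18 and Fbxo10 were in introns, and those near Nnmt and Arhgap24 were between genes.

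The H3K4me1-only regions were short. Their median width was 3000 bp, with quartiles of 2500 and 4000 bp, against 4000 bp in regions with H3K27ac in 1 to 22 lists and 7000 bp in regions with H3K27ac in all 23. A wider region has more room to meet an H3K27ac peak, so part of this order lies in the rule. The bases under H3K4me1 in all 12 mice had a median length of 1000 bp, and 83% of the regions were a single peak in every list. Within a single library 92.8 to 94.7% of them were 1 peak. Across the 12 libraries the covered length of a region had a median coefficient of variation of 24.5%. It was 21.1% in regions with H3K27ac in 1 to 22 lists and 14.4% in the regions acetylated throughout.

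The widest region, at Dmrta2, was covered over 10200 to 12000 bp in the HFD libraries (median 10900) and over 8200 to 12200 bp in the LFD libraries (median 9700). The region at Foxd3 was covered over 8800 to 12600 bp (median 11000) on the HFD and 7600 to 12600 bp (median 10000) on the LFD. The region at Otx1 was covered over 9400 to 10800 bp (median 10200) on the HFD and 9800 to 11400 bp (median 10600) on the LFD. In all 3 regions the libraries of the diets overlapped. The other widest regions lay near Trio, a guanine nucleotide exchange factor of axon growth, and near Pura, a nucleic acid binding protein of neurons. The Trio region varied from 4000 to 11800 bp between libraries. The Pura region was covered over 800 to 6400 bp and had no base in common to the 12 lists, although each had a peak in it.

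The H3K4me1-only regions were mostly distal to start sites. Their centres had a median distance of 27.3 kb to the nearest start site (TSS) of a protein-coding gene, close to the 25.1 kb of regions with H3K27ac in some lists and far above the 4.94 kb of regions acetylated throughout. By the centre of the region, 2502 (49.9%) were between genes, 1709 (34.1%) in introns, 161 (3.21%) in exons and 643 (12.8%) within 1 kb of a TSS. The nearest H3K27ac peak of any list was 11800 bp away at the median, and it was within 1 kb in 4.33% and within 10 kb in 45.5%. The nearest peaks to the regions at Dmrta2, Foxd3 and Otx1 were 32000, 50600 and 132000 bp away. Of the 632 regions with H3K4me1 in 12 lists on the X chromosome, 90 (14.2%) were H3K4me1-only, against 9.28% on chromosome 16 and 13.9% on chromosome 1, the lowest and highest of the autosomes.

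The 643 regions at start sites differed from the others in their bases. Of these, 515 (80.1%) held a CpG-rich window, defined as 500 bp with at least 55% G and C and an observed over expected CpG ratio of at least 0.65. Beyond 1 kb of a TSS, 381 of 4372 regions (8.71%) held such a window. For distal regions with H3K27ac in 1 to 22 lists the share was 3.64% and in all 23 lists 31%, and for proximal ones 59.1% and 75.2%. The median G and C content of the central 1000 bp was 60.7% in the proximal H3K4me1-only regions and 45% in the distal ones. The CpG-rich kind was most frequent among regions of 6000 bp or more, at 33.7%, against 15.1% of those from 2000 to below 3000 bp.

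HNF4α peaks covered a smaller share of the H3K4me1-only regions than of the acetylated ones. An HNF4α peak of any of the 4 lists overlapped 1038 of them (20.7%, 95% Wilson interval 19.6 to 21.8%), against 43.1% of regions with H3K27ac in 1 to 22 lists and 71.3% of those with it in all 23. Intervals of shares given here cover counting error only. In the HFD males 8.77% and 6.7% of the H3K4me1-only regions had a peak, and in the LFD males 11.9% and 5.66%. In the same libraries 47.2 to 55.6% of the regions acetylated throughout had a peak, so the order of the classes held in each of the 4 males. The diets overlapped (two-sided exact permutation test of 2 against 2 libraries, p = 1, smallest possible p = 0.33).

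**Figure D1:**
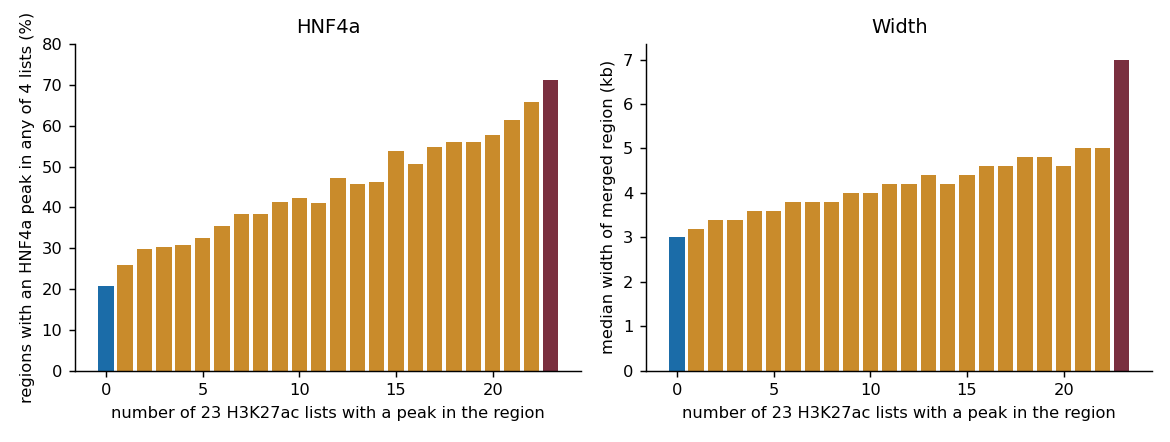
Regions with H3K4me1 in all 12 lists by the number of H3K27ac lists with a peak (x axis, 0 to 23). The left bars give the percent with an HNF4α peak in any of 4 lists and the right bars the median width in kb. H3K4me1-only regions (blue, at 0) have the lowest values, 20.7% and 3 kb, regions with H3K27ac in all 23 lists (dark red) the highest, 71.3% and 7 kb, and the others (ochre) lie between.

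The share with HNF4α was larger where more H3K27ac lists had a peak. It was 26% in regions acetylated in exactly 1 list, 41% in those acetylated in 11 and 65.9% in those acetylated in 22. Width followed the same order, so the classes were also compared within 5 classes of width. Among regions of 3000 to below 4000 bp, 20.5% of the H3K4me1-only regions, 41% of those with H3K27ac in some lists and 50.6% of those with it in all had an HNF4α peak. Among regions of 6000 bp or more, a class without an upper limit in which H3K4me1-only regions reached 14200 bp and regions acetylated throughout 127800 bp, these shares were 28.2%, 53.3% and 81.7%. Below 2000 bp they were 13.3%, 24.2% and 36.5%. The H3K4me1-only regions had the lowest share in each of the 5 classes of width. No test was made between classes of regions, which share the same libraries.

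**Figure D2:**
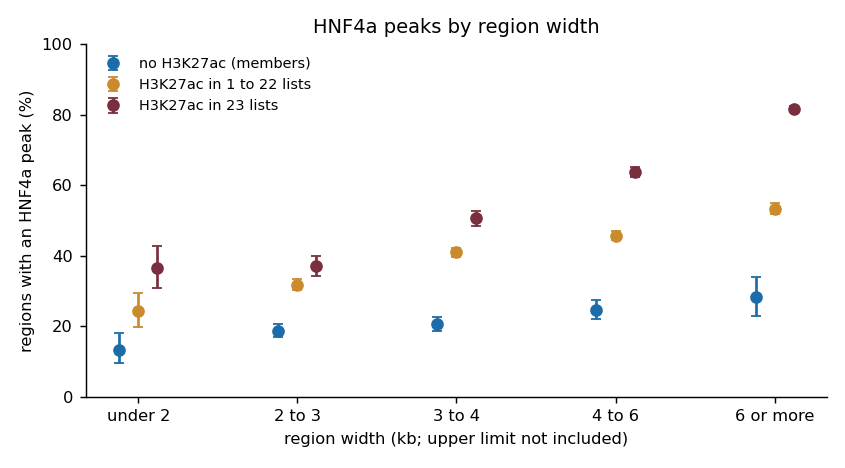
Percent of regions with an HNF4α peak in any of 4 lists (y axis) in 5 classes of region width in kb (x axis). Points are shares and bars 95% Wilson intervals, for H3K4me1-only regions (members in the legend, blue), regions with H3K27ac in 1 to 22 lists (ochre) and in all 23 (dark red). The blue points run from 13.3% to 28.2% and are the lowest in every class.

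Where HNF4α was present, it was mostly in 1 mouse. Of the H3K4me1-only regions 648 had a peak in 1 list, 219 in 2, 112 in 3 and 59 (1.18%) in all 4. A peak in all 4 was found in 1.77% of regions acetylated in exactly 1 list. It was found in 7.62% of those acetylated in 1 to 22 and in 31.1% of those acetylated throughout. Of the 59 H3K4me1-only regions with HNF4α in all 4 lists, none lay within 1 kb of a TSS. Of them 36 were between genes, 22 in introns and 1 in an exon, and their nearest TSS were those of 59 different genes. The merged HNF4α sites sat near the middle of the regions, with 51.5% in the inner 25% of the distance from centre to edge. This share was 45.9% in regions with H3K27ac in 1 to 22 lists and 32% in regions acetylated throughout. Proximal H3K4me1-only regions had HNF4α in 9.49% of cases and distal ones in 22.3%.

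The share of sites with an HNF4α core was larger for sites found in more males. At least 1 of the 4 cores lay in the 240 bp around the centre of 24 of 57 sites found in all 4 males (42.1%), the kind printed above for Rad18, Nnmt, Arhgap24 and Fbxo10. For sites found in 1 male the share was 12.1%. At sites of all 4 males it was 32% in regions with H3K27ac in some lists and 25.1% in regions acetylated throughout. The wide region at Otx1 also had HNF4α in all 4 males. The widest of the others with all 4 lay near Rad18, a ubiquitin ligase of DNA repair, Nnmt, a methyltransferase of nicotinamide, Car10, a protein related to carbonic anhydrases, Svil, an actin-binding protein, and Adam6a. In the Rad18 region H3K4me1 covered 4000 to 7200 bp (median 5200) in HFD libraries and 3200 to 6000 bp (median 3600) in LFD libraries.

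Cores of other factors were counted in the central 1000 bp and in windows of the same length 10000 bp away that lay outside H3K4me1. The core of CDX2, the homeobox factor of intestinal identity (TTTATGGC or TTTATTGC), was in 11.7% of H3K4me1-only regions, 9.75% of regions with H3K27ac in some lists and 7.44% of those acetylated throughout, against 6.98% in the windows away from H3K4me1-only regions. Restricted to distal regions these shares were 12.9%, 10.2% and 7.91%. Over whole regions, which differ in width, the order was reversed, at 27.4%, 31.8% and 42.7%. The HNF4α core was in 9.91%, 10.4% and 8.32% of the central windows, and in 5.2% of the windows away from H3K4me1-only regions. The AP-1 core (TGAGTCA or TGACTCA) was in 15.9% of H3K4me1-only regions and 16.4% of the windows away, and in 19.5% of regions with H3K27ac in some lists. The GATA core (AGATAA) was in 43.5% and in 44.6% of the windows away. For FOXA (TGTTTAC) the shares were 15.9% and 12.7%, for KLF (GGGTGTGG or GGGCGTGG) 16.6% and 9.11%, and for CTCF (CCA, AG and GGC, with 2 bases of any kind between the parts) 6.8% and 6.47%. A KLF core was in 21.2% of proximal and 15.9% of distal H3K4me1-only regions.

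The REST core was rare everywhere and most frequent at promoters without H3K27ac. It lay in 14 H3K4me1-only regions (0.279%, 95% Wilson interval 0.166 to 0.468%), in 16 regions with H3K27ac in some lists (0.082%, 0.0505 to 0.133%) and in 9 acetylated throughout (0.0485%, 0.0255 to 0.0922%), although the last were wider. Within 1 kb of a TSS it was in 11 of 643 H3K4me1-only regions (1.71%, 0.958 to 3.04%), against 5 of 1574 and 3 of 2909 (0.318% and 0.103%). Of the 14 regions 12 were CpG-rich. Their nearest genes were chosen for description after these counts were seen. Beside the 5 genes printed above they included Grin1, an NMDA receptor subunit, Chrm4, a muscarinic acetylcholine receptor, Crh, corticotropin-releasing hormone, Scn3b, a sodium channel subunit, Pcdh8, a protocadherin, Phyhipl, Rltpr and A330050F15Rik. Snap25 had 2 cores in its region. H3K4me1 covered 2000 to 3600 bp of the Snap25 region (median 2900) on the HFD and 2000 to 4000 bp (median 3000) on the LFD. Over the Ina region it covered 2600 to 3000 bp (median 2900) and 2200 to 3200 bp (median 2800), and over the Lhx3 region 2200 to 3200 bp (median 2700) and 1400 to 2600 bp (median 1900).

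Many genes of development were nearest to H3K4me1-only regions. Each region was assigned to the nearest TSS, which gave 3465 of 22232 protein-coding genes (15.6%). The most regions lay nearest to Auts2, a gene of neuronal development, with 15, Epha4, an ephrin receptor of axon guidance, with 11, and Nr2f2, an orphan nuclear receptor of veins and mesenchyme, with 10. Cadm1 (a cell adhesion molecule), Dennd1a (a regulator of vesicle traffic) and Zfp608 had 9 each. Lpp, an adhesion plaque protein, and Glis3, a zinc finger factor of pancreas and thyroid, had 8. Clybl, Ext1, Wwox, Gramd3, Myc, Tac1 and Bcl11a had 7 each. All of these 15 genes had H3K4me1 at the promoter in all 12 lists, and 12 had H3K27ac there in all 23, the exceptions being Cadm1 (18), Wwox (22) and Tac1 (17). Their H3K4me1-only regions therefore lay around active or partly active promoters, at 51.2 to 656 kb in Auts2, where 11 of 15 were intronic, and at 73.2 to 659 kb from Myc, where all 7 were between genes.

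Several of these regions stood in rows with no other 12-list region between them. The longest row held 8 regions over 379.8 kb of Auts2, 3 of them with HNF4α. A row of 6 regions over 161.8 kb lay at Tac1, the gene of the neuropeptide substance P, again with HNF4α in 3. Rows of 6 were also found over 391.2 kb at Pax9 and Nkx2-1, factors of foregut derivatives, and over 158.4 kb at Pax2, a factor of the kidney. A row of 7 over 430.2 kb included Aldh1a2, an enzyme of retinoic acid synthesis, and Lipc. In all, 59.4% of the H3K4me1-only regions had no other such region beside them.

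Lists of genes were compared with the 15.6% of all genes that were nearest to an H3K4me1-only region at any distance. Of all genes 6.25% had such a region within 10 kb, and 47.9% were nearest to a region acetylated throughout. Of 27 transcription factors of the foregut and other lineages, 16 (59.3%) were nearest to at least 1 region and 15 had a region within 10 kb. Pax9 had 5 regions, Barx1, a homeobox factor of the stomach, had 4, Sox2, a factor of foregut and stem cells, and Nkx2-5, a factor of the heart, had 3, and Pdx1, the factor of pancreas and duodenum, had 1. Of 20 transcription factors of intestinal identity, 7 (35%) were nearest to a region, with Gata6 at 5 and Foxa2 and Gata4 at 3 each. Of these 20, 1 (5%) had a region within 10 kb and 18 (90%) were nearest to a region acetylated throughout. Of 39 Hox genes 6 (15.4%) were nearest to a region. Among 16 genes of the cell cycle 2 (12.5%) were nearest to a region. Among 26 genes of bile acid and lipid handling 2 (7.69%) were, Apob and Cd36. Within 10 kb a region was found for 5 Hox genes (12.8%) and for no gene of the latter lists.

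The signalling pathways that pattern the gut lay between these. In the Wnt list 23 of 53 genes (43.4%) were nearest to a region, among them the ligands Wnt4 (4 regions), Wnt10a and Wnt11 (3 each), the secreted inhibitor Sfrp2 (3), the receptor Fzd4 (1) and the target and inhibitor Axin2 (3). In the Hedgehog list 7 of 14 genes (50%) were, among them the transcription factors Gli2 (3), Gli3 (2) and Gli1 (1), the receptor Ptch1 (2) and the coreceptors Gas1 (3) and Boc (1), and none was a ligand. In the Notch list it was 12 of 22 (54.5%), with the ligands Jag1 (3), Dll1 (2) and Dll4 (1), the receptors Notch2 (3) and Notch3 (1), and Atoh1 (2), the factor of secretory cells. In the BMP and TGF-beta list it was 12 of 31 (38.7%), led by the ligands Bmp2 and Bmp6 (4 each). In the axon guidance list it was 20 of 46 (43.5%), led by Epha4 (11) and Efnb2 (4). These counts take the nearest TSS at any distance. Within 10 kb it was 14 Wnt genes (26.4%), 6 Hedgehog genes (42.9%) and 2 Notch genes (9.09%). For the BMP and TGF-beta list it was 4 (12.9%) and for axon guidance 6 (13%), against 6.25% of all genes.

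**Figure D3:**
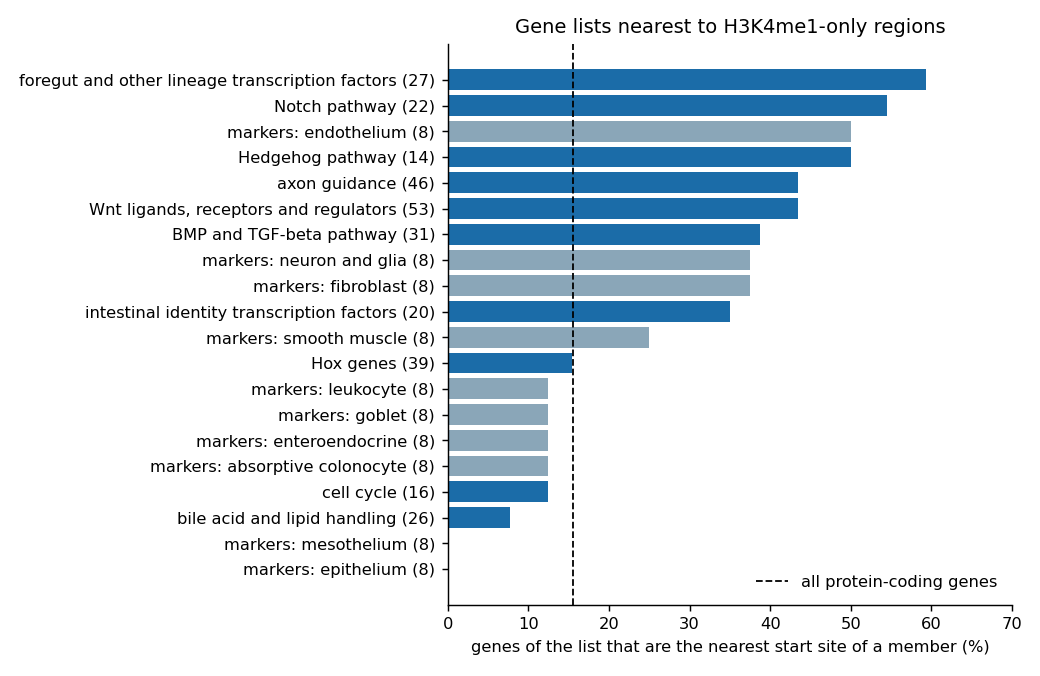
Percent of the genes of each list that are the nearest start site of at least 1 H3K4me1-only region, at any distance (bars). The number of genes is in parentheses. A member in the axis label is an H3K4me1-only region. Pale bars are cell type markers and blue bars are pathways or factors, and the dashed line is the 15.6% of all protein-coding genes. Transcription factors of the foregut and other lineages reach 59.3%, while none of 8 epithelial markers is nearest to a region.

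Families of transcription factors were counted by symbol after the lists had been seen. All 8 Lhx genes were nearest to a region and none was nearest to a region acetylated throughout, against 15.6% and 47.9% of all genes. The counts were 5 of 6 for Dlx, 6 of 9 for Pax, 10 of 16 for the T-box genes and 9 of 14 for Nkx. They were 11 of 18 for Sox and 19 of 43 for Fox. With a region within 10 kb there were 8 Lhx, 5 Dlx, 5 Pax, 8 T-box, 8 Nkx, 5 Sox and 12 Fox genes. For the Elf, Ets, Etv and Erg genes it was 3 of 20, or 15%, and for the Atf, Creb, Fos and Jun genes 5 of 17. The Klf genes, many of which are active in epithelium, had 6 of 17 near H3K4me1-only regions. They had 14 of 17 near regions acetylated throughout, against 47.9% of all genes. Within 10 kb of an H3K4me1-only region were 1 Klf gene, 2 Elf, Ets, Etv and Erg genes and 0 Atf, Creb, Fos and Jun genes. The length of intergenic space around a gene was not taken into account in these counts.

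Markers of cell types were counted in the same way, matched to start sites by gene symbol alone. All 8 epithelial markers were nearest to regions acetylated throughout and none to an H3K4me1-only region, against 47.9% and 15.6% of all genes. Of 8 markers each, 4 of endothelium (Kdr, Pecam1, Tek and Vwf), 3 of fibroblasts (Dpt, Pdgfra and Col1a1), 3 of neurons and glia (among them Snap25 and Uchl1) and 2 of smooth muscle (Des and Myh11) were nearest to at least 1. For goblet cells it was Clca1, for enteroendocrine cells Tph1, for absorptive cells Slc9a3 and for leukocytes Csf1r, while none of 8 mesothelial markers was. Nearest to a region acetylated throughout were 8 absorptive and 5 goblet markers, and 3 each of enteroendocrine cells and endothelium. The counts were 2 each for fibroblasts, smooth muscle and neurons and glia, 1 for leukocytes and 0 for mesothelium. The paper's own purity check found that the isolated epithelium also held other cells. Which cells of the preparation carried H3K4me1 at these genes was not tested.

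Promoters beside H3K4me1-only regions were mostly without H3K27ac. Of the 1389 genes assigned to a region within 10 kb, 914 (65.8%) had no H3K27ac peak within 1 kb of any TSS in any of the 23 lists, against 38.5% of all protein-coding genes. Another 263 (18.9%) had it in all 23 lists. For genes with a region acetylated in 1 to 22 lists within 10 kb, 14.3% of the promoters were never acetylated, and for those with a region acetylated throughout 1.93%. Where the H3K4me1-only region lay at the promoter itself this follows in part from the rule.

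Genes with an H3K4me1-only region were expressed at low levels in the recipients' colon. Expression is given as RPKM, reads scaled to exon length and to the counted reads of the library, from libraries of 39904191 to 48026846 reads, and 1255 of the 1389 genes (90.4%) were measured. For the 703 genes with an H3K4me1-only region and no acetylated region within 10 kb, the median RPKM was 0.0521 to 0.193 over the 12 libraries. Of these 507 (72.1%) stayed below 1 RPKM in every library, against 38% of all genes and 77% of genes without any H3K4me1 region. For the 552 genes with both kinds of region the median was 0.819 to 1.73, and for the 11464 genes with acetylated regions alone it was 5.24 to 6.05. On the log2 scale the means over libraries were −3.24 ± 0.498 (SD, n = 12), 0.19 ± 0.378 and 2.49 ± 0.0678, and for 4656 genes without any H3K4me1 region −4.37 ± 0.0814. The last class had a median RPKM of 0 in every library, so its log2 value is set by the prior count of 2. The order of the 4 classes was the same in each of the 12 libraries. In bulk RNA, fewer cells of a type and less RNA per cell cannot be told apart.

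**Figure D4:**
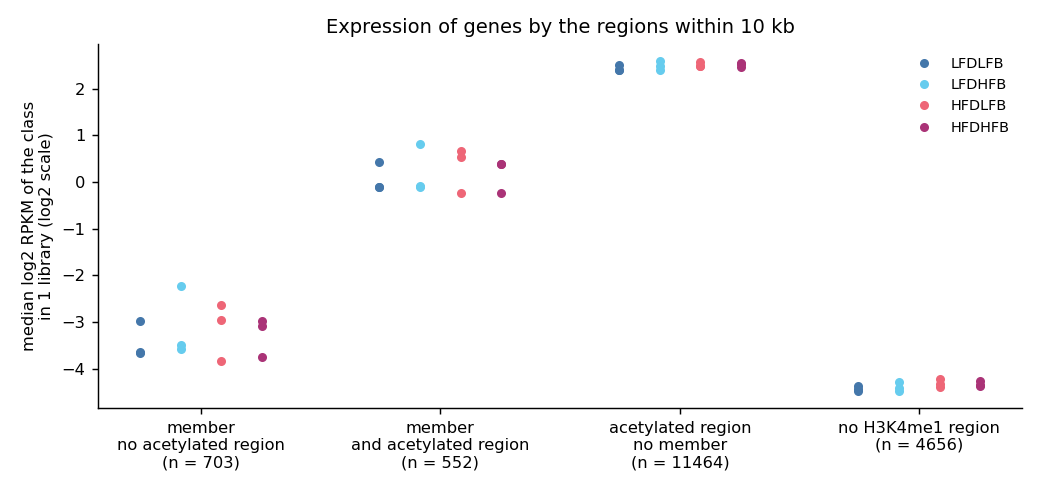
Median log2 RPKM (y axis) of 4 classes of genes (x axis, number of genes in parentheses), defined by the regions assigned to them within 10 kb. A member is an H3K4me1-only region, and each point is 1 library, coloured by group with 3 libraries each. Genes with an H3K4me1-only region and no acetylated region lie between −3.83 and −2.24, above genes without H3K4me1 and below the other 2 classes.

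Acetylation of the promoter separated these genes further. The 807 genes with an H3K4me1-only region and a promoter never acetylated had a median log2 RPKM of −3.33 ± 0.467 (SD, n = 12), and the 247 with a promoter acetylated in all 23 lists 2.15 ± 0.0747. Genes with a never acetylated promoter and no H3K4me1-only region, 5676 in number, were lower still at −4.38 ± 0.0828, and 2544 of them had no read in any library, against 86 of the 807. The 476 genes with a CpG-rich H3K4me1-only region within 1 kb of the TSS stood at −2.63 ± 0.555.

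Many genes of lineage factors had few reads. Over all genes, 38% stayed below 1 RPKM in every library. Dmrta2 reached 0.0701 RPKM at most over the 12 libraries (median 0.0156), Otx1 0.0134 (median 0.00393), Foxd3 0.642 (median 0.2) and Lhx3 0.00806 (median 0). Of the 27 lineage factors 23 stayed below 1 RPKM in every library, as did all 8 Lhx, all 6 Pax, all 5 Dlx and 9 of 10 T-box genes that were nearest to a region and measured, the exception being Tbx3. Other families held more active genes, with 8 of 18 Fox, 5 of 11 Sox and 4 of 6 Klf genes at 1 RPKM or more in some library. Cdx2, by comparison, had 17.5 to 116 RPKM (median 49) and Hnf4a 199 to 275 (median 242). Rest itself had 0.955 to 1.93 RPKM (median 1.41). Of the 13 measured genes with a REST core in their region, 8 stayed below 1 RPKM in every library. This share was 56.5% over all genes with an H3K4me1-only region within 10 kb. Snap25, also a marker of neurons, had 1.24 to 11.3 RPKM (median 1.95), Cacna1b 0.556 to 1.47 (median 0.741) and Ina 0.105 to 2.14 (median 0.307), while Kcnt1 had 0.0121 to 0.258 (median 0.0467) and Crh was listed at 0 in every library.

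Genes near to many regions had a wide range of levels. Clybl, a mitochondrial enzyme, had 42.1 to 61.4 RPKM (median 47.7), Gramd3 19.8 to 101 (median 32.7), Lpp 5.03 to 7.76 (median 6.28) and Myc 2.66 to 7.84 (median 4.97). Nr2f2 had 2.36 to 3.65 RPKM (median 2.96), Auts2 0.902 to 2.26 (median 1.35), Epha4 0.58 to 1.38 (median 1.19), Wwox 0.64 to 1.04 (median 0.827), Glis3 0.539 to 0.945 (median 0.654) and Bcl11a 0.205 to 0.55 (median 0.321).

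The following genes had the highest levels among those with an H3K4me1-only region and no acetylated region within 10 kb. Clca1, listed here as a goblet cell marker, had 1004 to 2744 RPKM (median 1689). The gene annotated under this symbol had H3K27ac at its promoter in none of the 23 lists. Reads and positions were joined by gene symbol alone. Whether both describe the same gene was not checked, so this pairing may not hold. The H3K4me1-only region at the annotated gene, chr3:144422801-144425200, covered the TSS at 0.196 kb from the centre. It was covered over 1400 to 1800 bp (median 1600) on the HFD and 1400 to 2200 bp (median 2000) on the LFD. Desmin (Des) and smooth muscle myosin (Myh11) had 30.4 to 259 (median 67.4) and 30.6 to 173 RPKM (median 72.5), Cfd, an adipocyte protease also called adipsin, 1.45 to 556 (median 37.4), and Mgp, a matrix protein, 36.9 to 138 (median 57.2). Of genes with both kinds of region, Calm3 (194 to 233 RPKM), Tmsb10 (105 to 222), Cnnm4 (89 to 142), Gnb2 (82.5 to 124) and Slpi (14.5 to 206) were the highest.

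The summed RPKM of several marker lists differed between the libraries highest and lowest in these genes. The median log2 RPKM of the genes with an H3K4me1-only region and no acetylated region was highest in LFDHFB replicate 3 (−2.24) and HFDLFB replicate 1 (−2.64), and lowest in HFDLFB replicate 3 (−3.83) and HFDHFB replicate 1 (−3.75). The summed RPKM of 8 neuron and glia markers in these 4 libraries was 141, 76.9, 19 and 18.5, and its range over all libraries was 18.5 to 141. Summed smooth muscle markers ranged from 567 to 3812 and stood at 3121, 2763, 567 and 1097 in the same 4. Absorptive colonocyte markers, which are epithelial, stood at 15634, 10770, 7645 and 7054. Fibroblast, endothelial and mesothelial sums were also higher in both of the highest libraries than in both of the lowest. Other lists did not follow this order. Leukocyte markers stood at 107, 254, 116 and 135, goblet markers at 15778, 20080, 18849 and 18689 and epithelial markers at 5975, 6781, 6742 and 7862. Enteroendocrine markers stood at 663, 383, 385 and 390. Fibroblast markers ranged from 140 to 797, leukocyte markers from 107 to 289, endothelial markers from 7.1 to 23.6 and mesothelial markers from 22.4 to 227, against 5552 to 7862 for epithelial markers. Of the defining markers only Vwf and Krt5 stayed below 1 RPKM in every library. The groups overlapped in these sums for neurons and glia, and their part in the result was not tested.

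**Figure D5:**
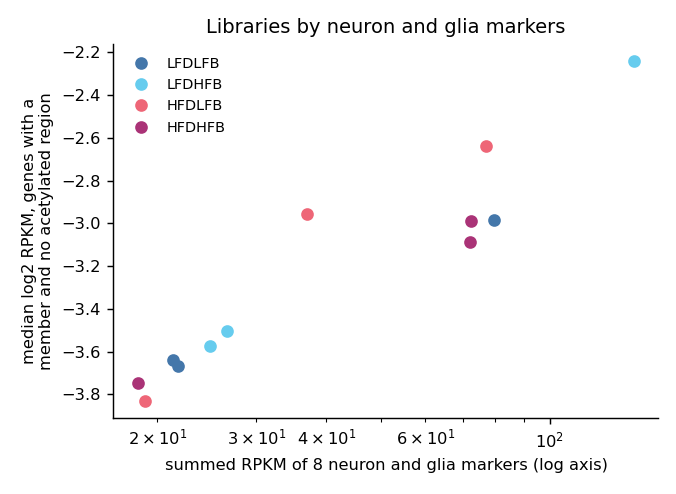
Each point is 1 of 12 RNA-seq libraries, coloured by group. The x axis is the summed RPKM of 8 neuron and glia markers on a log axis, and the y axis the median log2 RPKM of the 703 genes with an H3K4me1-only region (a member) and no acetylated region. Libraries with marker sums of 18.5 to 26.6 lie at −3.505 or lower, and the library with 141 lies highest, at −2.24.

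No difference in H3K4me1 between the diets passed the test at these regions. Summed over the 5015 regions, H3K4me1 covered 10.43 ± 0.0803 Mb in HFD females, 10.26 ± 0.12 in LFD females, 10.5 ± 0.267 in HFD males and 10.29 ± 0.313 in LFD males (SD, n = 3 each). Over both sexes the HFD libraries covered 0.193 Mb, or 1.87%, more than the LFD libraries (exact permutation test, two-sided, diets permuted within each sex, p = 0.165, and p = 0.33 adjusted over 4 such tests). Without HFD male replicate 2 the difference was 0.27 Mb (exact permutation test, p = 0.03), and without LFD male replicate 1 it was 0.103 Mb (exact permutation test, p = 0.365). The diet differences of females and males were 0.174 and 0.211 Mb (exact permutation test of the interaction, p = 0.885). Females covered 0.0507 Mb less than males (exact permutation test, p = 0.67, adjusted p = 0.67). This difference ran from −0.14 to 0.00365 Mb when single libraries were left out, with the sign turned without LFD male replicate 3. As a share of each library's own H3K4me1, the regions took 4.58% in females and 4.43% in males (exact permutation test, p = 0.04, adjusted p = 0.16). Over all regions the libraries covered 221.24 to 231.64 Mb in females and 218.63 to 240.25 Mb in males.

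Region by region the result was the same. The log2 covered length was fitted with limma over all 43085 regions with H3K4me1 in 12 lists. None of the 5015 regions passed an adjusted p of 0.05 for HFD minus LFD in males, in females or over both sexes, for the interaction of diet and sex, or for sex (percent called over all regions: 0, 0, 0, 0 and 0.00232, the last a single region outside this set). At an unadjusted p under 0.05 there were 180 regions for diet in males (3.59%, against 4.16% of all tested), 299 in females (5.96% against 5.75%), 255 over both sexes (5.08% against 4.89%), 241 for the interaction (4.81% against 5%) and 303 for sex (6.04% against 6.49%). The median log2 difference between diets over both sexes was 0.0272 for the H3K4me1-only regions and 0.00379 for all regions tested.

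The genes assigned to these regions did not change past the threshold between the groups of recipients. Of 905 such genes among 15893 tested with edgeR's quasi-likelihood test, none passed an adjusted p of 0.05 for HFB minus LFB on the HFD or on the LFD, for the interaction, or for HFD minus LFD with HFB or with LFB. The percent called over all genes was 0 in each of these 5 comparisons. At an unadjusted p under 0.05 there were 80 assigned genes for HFB minus LFB on the HFD (8.84%, against 9.07% of all genes), 23 on the LFD (2.54% against 3.72%), 75 for the interaction (8.29% against 11.3%), 28 for diet with HFB (3.09% against 7.46%) and 62 for diet with LFB (6.85% against 5.33%). The comparisons share groups and are not independent of each other. DESeq2's Wald test called 8, 0, 2, 2 and 0 of the assigned genes (0.832%, 0%, 0.202%, 0.351% and 0% of those it gave an adjusted p), against 0.486%, 0%, 0.208%, 0.883% and 0.0523% of all genes.

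By edgeR none of the genes named here was past the threshold. The smallest p among the assigned genes belonged to Snx31, a sorting nexin, for diet with HFB (log2 difference −3.88 ± 0.682 SE, edgeR adjusted p = 0.3). Snx31 was scarcely expressed, with 0.00825 to 0.0311 RPKM in HFDHFB, 0.179 to 0.442 in LFDHFB and no higher value in any library. Slc2a5, the fructose transporter, was next in that comparison, at −1.04 ± 0.199 (edgeR adjusted p = 0.3, DESeq2 adjusted p = 0.000691). For HFB minus LFB on the HFD it was Cybrd1, a ferric reductase of the gut, at −3.05 ± 0.698 (edgeR adjusted p = 0.495, DESeq2 adjusted p = 0.00318). Cybrd1 had 3.47, 4.9 and 0.472 RPKM in HFDLFB replicates 1, 2 and 3, against 0.235 to 0.44 in HFDHFB. Slpi, an inhibitor of proteases, stood at −2.31 in the DESeq2 fit of the same comparison (DESeq2 adjusted p = 0.029, edgeR adjusted p = 0.495). Slpi had 141, 206 and 58 RPKM in the same HFDLFB libraries, against 14.5 to 47.2 in HFDHFB. For both genes HFDLFB replicate 3 thus lay nearest to the HFDHFB libraries. Within the lists, none of the 27 lineage factors, 20 intestinal factors or 53 Wnt genes passed in any comparison by edgeR, of which 13, 20 and 42 had been tested.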

How the data were processed

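Per the labels and the submitters' processing notes, the authors processed ChIP-seq reads on mm9 with Bowtie 0.12.8 and Picard 1.110 and deposited peak lists per sample from SICER (window 200 bp, gap 200 bp for H3K27ac and 400 bp for H3K4me1, FDR 0.001). HOMER and bedtools are also listed. The authors deposited RNA-seq as raw counts per gene (25494 genes, STAR 2.5, featureCounts 1.5.0-p1 of Subread), and 417 symbols on several rows entered the fit but were matched to no gene.

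The regions and gene lists were chosen with earlier results of these data known. Peaks were merged and compared at 1 bp of overlap. Regions were assigned to the nearest TSS of a protein-coding gene (NCBIM37 annotation, the mm9 build), and genes to classes within 10 kb. Named genes were the 15 with the most regions, those of the widest regions, of regions with HNF4α in all 4 lists, of the lists, and the 5 highest per expression class. Genes with a REST core and the transcription factor families were added after their values were seen. Covered length was tested with limma 3.58.1, its sums with exact permutation tests (SciPy 1.17.1), and counts with edgeR 4.0.16 (R 4.3.3), with DESeq2 1.42.0 as an alternative. Log2 RPKM used a prior count of 2. Fits and motif searches were tested on simulated data, with Python 3.11.15, numpy 2.4.6, pysam 0.24.0 and matplotlib 3.10.9. Alternatives covered the rule, assignment, normalisation, filters and single libraries. Nothing says that libraries are separate cultures or litters beyond their labels, so p-values measure the spread between these samples. Some genes and sequences are not reported here.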

Additional observations from a re-analysis of the deposited data

How the results depend on the processing

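Of 425 alternative values for 23 results, 401 were counted as the same as the main value. For shares this meant within the Wilson interval of the main share, and for median log2 RPKM within the SD over libraries. Counts and widths had to stay close to the main value. Differences with a p-value had to keep their sign and their side of the threshold. Of the other values, 22 moved, 1 was reversed and 1 was stronger. Excluding only regions with H3K27ac over at least 50% of their length gave 15625 regions with a median width of 4200 bp, an HNF4α share of 33.96% and a share in all 4 lists of 4.698%. With only the 12 H3K27ac lists of the diet study there were 8331 regions, with HNF4α in 21.93%, and with H3K4me1 in at least 11 lists the share was 19.41%. By width the share was 13.33%, 18.69%, 24.68% and 28.17% below 2000, from 2000 to below 3000, from 4000 to below 6000 and from 6000 bp. The HFD minus LFD difference ranged from 0.103 to 0.27 Mb when single libraries were left out, the highest (exact permutation p = 0.03) without HFD male replicate 2, and the female minus male difference from -0.14 to 0.00365 Mb, the latter, without LFD male replicate 3, reversed (exact permutation p = 0.965). With gene starts taken from the RNA-seq file, 28.3% of regions had a TSS within 10 kb. Over whole regions 24.2% held an HNF4α core and 27.4% a CDX2 core, and the order of the classes for the CDX2 core turned (31.8% with H3K27ac in some lists, 42.7% in all). The median log2 RPKM was 0.7732 for genes with both kinds of region and 2.374 for those with acetylated regions alone at 100 kb, 2.389 for the latter with exactly 1 assigned region, and -6.349 for genes without H3K4me1 at a prior count of 0.5. Genes with both kinds of region have no value with exactly 1 region. Leaving out single libraries gave 0 to 1 regions called for sex, the 1 without HFD female replicate 2. DESeq2 called 8, 2 and 2 assigned genes for HFB minus LFB on the HFD, the interaction and diet with HFB, against 80, 35 and 116 of all genes (0.486%, 0.208% and 0.883%). Causes were not tested. Centring each library on its mean over the 12-list regions was added after seeing the data and called no region.

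The replicate numbers did not pair the samples. Correlations of same-numbered libraries ran from -0.0511 to 0.0521 for H3K4me1 and from -0.576 to 0.456 for RNA. With the replicate number as a block the differences were 0.192 Mb for diet (exact permutation p = 0.219) and -0.0507 Mb for sex (exact permutation p = 0.688), and 0 regions and 0 assigned genes were called.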
